A study of Sus scrofa with 9 samples.

Results

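The 10 genes described here encode the 5 NF-kappa B subunits (RELA, REL, RELB, NFKB1 and NFKB2) and 5 regulators of the pathway: the I kappa B proteins NFKBIA and NFKBIE, the nuclear I kappa B proteins NFKBIZ and BCL3, and the ubiquitin-editing enzyme TNFAIP3. They were chosen by gene name, not by their values, from the 21357 genes of the table, and each name occurred once. RNA-seq was made from the abdominal aorta of Tibetan minipigs, a small pig breed, in 9 libraries of 3 groups with 3 libraries each. NC pigs ate a regular diet for 24 weeks, H8 pigs a high-fat diet for 8 weeks (labelled hypercholesterolemia) and H24 pigs a high-fat diet for 24 weeks (labelled atherosclerosis). The study's methods describe NC and H24 as male pigs a few months old at the start, with fat and cholesterol added to the feed of H24, whereas H8 is known from the labels alone. No group on the regular diet was labelled with 8 weeks, so in comparisons with H8 the time on the diet and the age of the pigs cannot be told apart from the other group differences. By the study's methods each NC and H24 library came from a different pig, while for H8 the labels do not say so, and the spread between H8 libraries may be technical in part.

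NF-kappa B is a family of transcription factors that act as pairs of subunits. In resting cells the pairs are held in the cytoplasm by I kappa B proteins, and signals from TNF, interleukin or Toll-like receptors activate a kinase complex that marks I kappa B for destruction, so that the pair enters the nucleus. Several of its targets encode its own inhibitors, among them NFKBIA, NFKBIE and TNFAIP3, which makes their mRNA a common readout of recent pathway activity, and in the artery wall endothelial cells, smooth muscle cells and macrophages all use the pathway.

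Total counts lay between 44094263 and 75787978 per library, and the members had between 233 and 29590 counts in a library, so none was near the floor of 3 counts. A member is said to have risen, and was called, where its log2 fold change on the counts exceeded 1 at an unadjusted p under 0.05 by edgeR's quasi-likelihood test, the thresholds of the study's methods, and adjusted p-values are over all genes tested. Levels are given as FPKM, a read density per length of transcript and per depth. Smooth muscle markers (MYH11, ACTA2, TAGLN and 4 others, all 7 in the table) were abundant, with a summed level of 11637 to 13575 FPKM in NC, 9846 to 13352 in H8 and 1710 to 11507 in H24, so the defining markers of the vessel wall were present. The lowest of these was H24 replicate 3. The summed level of 8 macrophage markers (CD68, CD14, CD163 and 5 others) was 20.1 to 24.9 FPKM in NC, 21.6 to 122 in H8 and 137 to 1455 in H24, the highest again in H24 replicate 3. In bulk tissue, fewer cells of a type and less RNA per cell cannot be told apart, nor can more cells and more RNA per cell.

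By mean FPKM, NFKBIA, the main cytoplasmic inhibitor, stood first and REL, the subunit best known from lymphocytes and myeloid cells, stood last in all 3 groups. In NC, NFKBIA had 67.0 ± 7.02 FPKM (SD, n = 3) and REL 0.795 ± 0.290. Among the subunits, the NFKB2 precursor was the most abundant with 25.01 ± 0.295 FPKM, followed by RELA with 19.2 ± 0.907, NFKB1 with 10.9 ± 0.802 and RELB with 5.65 ± 0.824. The ranges over NC libraries of these 5 subunits did not overlap between neighbours in this order. NFKBIZ (40.4 ± 34.9) and BCL3 (10.4 ± 9.18) had no firm place in it, since the range of NFKBIZ overlapped those of NFKBIA and NFKB2 and the range of BCL3 those of NFKB1 and RELB. In H24 each member overlapped the next one in the order, except that RELB did not overlap REL.

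**Figure D1:**
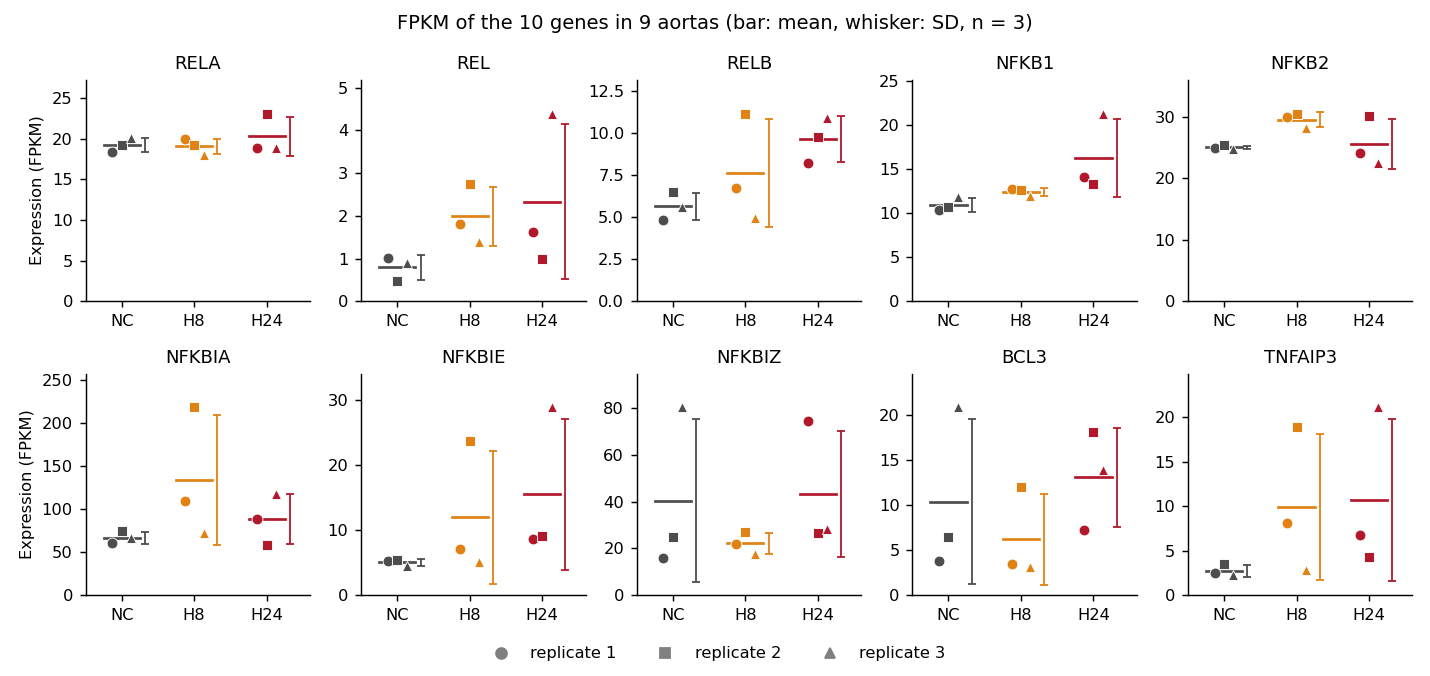
FPKM of the 10 members in the 9 libraries on linear axes from 0, with a panel for each gene, a point for each library (shape: replicate), a bar for the mean and a whisker for the SD of each group (n = 3). RELA and NFKB2 stay within a narrow range, while REL, NFKBIE and TNFAIP3 have their highest values in H8 replicate 2 and H24 replicate 3, and NFKBIZ and BCL3 have theirs in NC replicate 3.

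RELA (Sscrofa11.1 chr2:6594279-6606866, plus strand) carries the activation domain of the classical pair. Its FPKM was 18.3, 19.2 and 20.1 in NC replicates 1 to 3, 19.9, 19.2 and 18.0 in H8, and 18.8, 23.1 and 18.9 in H24. The 3 groups overlapped, and the coefficient of variation in NC was 4.73%, against a median of 17.0% over 11239 genes whose mean was 1 FPKM or more. By edgeR, the log2 fold change was 0.06 for H24 against NC (95% interval -0.42 to 0.54, adjusted p = 0.926) and 0.13 for H8 against NC (-0.20 to 0.46, adjusted p = 0.710). The sign of the H8 value depended on the scaling, being -0.02 when scaled by library size only. RELA overlaps SIPA1 on the opposite strand, and whether counting used the strand is not given in the sources used here.

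NFKB2 (chr14:113405991-113414326, plus strand), the precursor of the subunit of the alternative pathway, was tightest of all members in NC. Its FPKM was 24.9, 25.3 and 24.8 in NC, 29.9, 30.5 and 28.1 in H8, and 24.1, 30.2 and 22.5 in H24. Every H8 library was above every NC library, by a log2 fold change of 0.38 with an SE of 0.14 (adjusted p = 0.284 by edgeR), below the size of 1 needed for a call. H24 overlapped both other groups, with a log2 fold change of 0.01 against NC (95% interval -0.48 to 0.51). NFKB2 overlaps PSD on the opposite strand.

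NFKB1 (chr8:118390630-118507052, minus strand) encodes the precursor of the partner of RELA. Its FPKM was 10.3, 10.7 and 11.8 in NC, 12.7, 12.6 and 11.9 in H8, and 14.1, 13.3 and 21.3 in H24. The groups did not overlap, with H8 above NC and H24 above H8, and H24 replicate 3 was the highest library. The log2 fold change of H8 against NC was 0.33 with an SE of 0.14 (adjusted p = 0.353 by edgeR) and that of H24 against H8 was 0.20 (95% interval -0.38 to 0.78). For H24 against NC it was 0.55 (-0.04 to 1.14), and it was 0.30 without H24 replicate 3. NFKB1 overlaps MANBA on the opposite strand.

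REL (chr3:80872286-80911959, minus strand) was the subunit with the largest difference. It had 1.01, 0.466 and 0.907 FPKM in NC, 1.81, 2.76 and 1.39 in H8, and 1.62, 0.981 and 4.396 in H24. All H8 libraries were above all NC libraries, whereas H24 replicate 2 lay within the NC range. REL rose in H8 against NC by a log2 fold change of 1.49 (SE 0.40, adjusted p = 0.209 by edgeR) and in H24 against NC by 1.54 (SE 0.60, adjusted p = 0.332). The H8 call held without H8 replicate 2 (1.09), and the H24 call ended without H24 replicate 3 (0.69) and without any 1 of the 3 NC libraries (1.28 to 1.74). With limma on log2 FPKM the H24 call was lost at each pseudocount (0.77 to 1.33), and the H8 call at a pseudocount of 1 (0.72).

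RELB (chr6:51444715-51480319, plus strand), the partner of the NFKB2 product, had 4.84, 6.48 and 5.62 FPKM in NC, 6.72, 11.2 and 4.98 in H8, and 8.23, 9.79 and 10.9 in H24. All 3 H24 libraries were above the NC range, including both libraries other than replicate 3. The log2 fold change of H24 against NC was 0.75 with an SE of 0.26 (adjusted p = 0.277 by edgeR), short of the size needed for a call. It kept its direction in every leave-one-out fit, at 0.64 to 0.89. In H8 the value was 0.60 (95% interval -0.24 to 1.43), and 1 of the 3 libraries lay within the NC range.

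As a share of the summed FPKM of the 5 subunits, RELA made up 30.8% to 31.8% in NC and NFKB2 39.2% to 42.0%. In H24 replicate 3 RELA made up 24.2%, NFKB2 28.8%, NFKB1 27.3% and REL 5.64%. The share of REL was 0.751% to 1.70% in NC, 2.16% to 3.61% in H8 and 1.27% to 5.64% in H24. The shares of REL in H8 were all above those in NC, while those of H24 overlapped NC.

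NFKBIA (chr7:64507743-64511304, plus strand), which binds RELA pairs and is resynthesised after each round of activation, had 60.4, 74.4 and 66.1 FPKM in NC, 109.9, 218 and 72.6 in H8, and 88.7, 58.8 and 117 in H24. H8 replicate 2 was the highest library, and H8 replicate 3 lay within the NC range. NFKBIA rose in H8 against NC by a log2 fold change of 1.17 (SE 0.42, adjusted p = 0.276 by edgeR). Without H8 replicate 2 the value was 0.52 and the call was lost. It was lost as well without NC replicate 1 (1.09) or NC replicate 3 (1.15), where the unadjusted p no longer passed. It was further lost when scaled by library size only (0.98), with a replicate block (0.99) and with limma on log2 FPKM (0.84 to 0.85). In H24 the value against NC was 0.37 (95% interval -0.32 to 1.06). The ratio of NFKBIA to RELA in FPKM was 3.29 to 3.88 in NC, 4.03 to 11.4 in H8 and 2.55 to 6.21 in H24, so that all H8 libraries were above NC and H24 fell on both sides of it.

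NFKBIE (chr7:39255075-39263367, minus strand), another cytoplasmic inhibitor that is itself induced by the pathway, had 5.26, 5.38 and 4.397 FPKM in NC, 7.10, 23.7 and 5.06 in H8, and 8.61, 9.01 and 28.8 in H24. Every H24 library was above every NC library, and 1 library in each diet group stood far above the rest. NFKBIE rose in H24 against NC by a log2 fold change of 1.61 (SE 0.51, adjusted p = 0.247 by edgeR) and in H8 against NC by 1.45 (SE 0.59, adjusted p = 0.320). Without H24 replicate 3 the H24 value was 0.79, too small for a call, and without NC replicate 3 it was 1.499, no longer past the p threshold. Without H8 replicate 2 the H8 value was 0.35, and leaving out any 1 of the NC libraries also ended that call (1.36 to 1.53). The H8 call was further lost when scaled by library size only (1.24), with a replicate block (1.05), with all 9 libraries in 1 fit (1.43) and with limma on log2 FPKM (0.83 to 0.92).

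TNFAIP3 (chr1:26473935-26489776, minus strand) removes and adds ubiquitin chains on signalling proteins upstream of the I kappa B kinase and so dampens the pathway. It had 2.43, 3.51 and 2.21 FPKM in NC, 8.12, 18.9 and 2.78 in H8, and 6.76, 4.24 and 21.1 in H24. All H24 libraries and H8 replicates 1 and 2 were above NC, while H8 replicate 3 lay within the NC range. TNFAIP3 rose in H24 against NC by a log2 fold change of 1.95 (SE 0.61, adjusted p = 0.239 by edgeR) and in H8 against NC by 2.05 (SE 0.66, adjusted p = 0.244). These were the largest changes of any member in both comparisons. Without H24 replicate 3 the H24 value was 0.98, just too small for a call, and without H8 replicate 2 the H8 value was 1.08, no longer past the p threshold. The H24 call was also lost without NC replicate 3 (1.80), and the H8 call without NC replicate 1 (1.97) or NC replicate 3 (1.92).

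**Figure D2:**
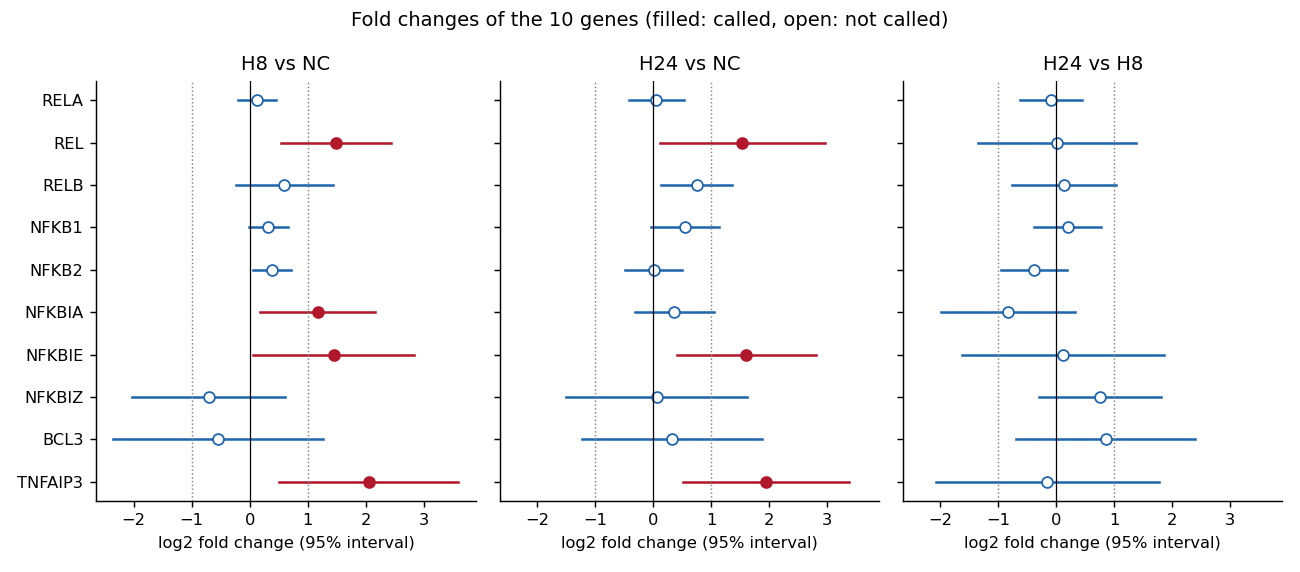
Log2 fold changes of the 10 members by edgeR in 3 panels (H8 against NC, H24 against NC, H24 against H8), with lines for the 95% interval, filled points for calls, open points for the rest and dotted lines at -1 and 1. REL, NFKBIE and TNFAIP3 are called up in both comparisons with NC and NFKBIA in H8 against NC alone, while no point is filled in H24 against H8.

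NFKBIZ (chr13:157261419-157272689, minus strand) and BCL3 (chr6:51255938-51265354, plus strand) are I kappa B proteins that work in the nucleus, where they can increase as well as limit transcription by NF-kappa B. NFKBIZ had 16.1, 24.7 and 80.4 FPKM in NC, 21.8, 26.9 and 17.8 in H8, and 74.5, 26.7 and 28.5 in H24. BCL3 had 3.84, 6.40 and 20.9 in NC, 3.46, 12.1 and 3.08 in H8, and 7.22, 18.1 and 13.9 in H24. For both genes NC replicate 3 was the highest of all 9 libraries, and their coefficients of variation in NC (86.4% for NFKBIZ and 88.5% for BCL3) exceeded those of 98.8% and 98.9% of the 11239 genes. The groups overlapped in every comparison. Against NC, the log2 fold changes in H24 were 0.06 for NFKBIZ (95% interval -1.50 to 1.63) and 0.33 for BCL3 (-1.22 to 1.88), and in H8 -0.71 for NFKBIZ (-2.02 to 0.61) and -0.54 for BCL3 (-2.35 to 1.26), so changes of several fold in either direction were not detectable with 3 libraries a group. Without NC replicate 3 the H8 values were 0.26 for NFKBIZ and 0.45 for BCL3, and BCL3 passed the call in H24 against NC (1.32).

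In H24 against NC, 3 of 10 members rose (REL, NFKBIE and TNFAIP3), against 9.95% of the 14828 genes tested, and none fell, against 1.52%. The groups did not overlap, H24 above NC, for 4 members (NFKB1, RELB, NFKBIE and TNFAIP3), against 12.8% of genes. None of the members passed an adjusted p under 0.05 by edgeR, and neither did any gene tested (0%). At an unadjusted p under 0.05 there were 4 members, against 13.9% of genes, and with DESeq2, by which 1004 genes passed the adjusted threshold, NFKBIE (adjusted p = 0.0426) and TNFAIP3 (adjusted p = 0.0260) passed it. The median log2 fold change of the members was 0.46, against 0.01 over all genes tested.

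In H8 against NC, 4 of 10 members rose (REL, NFKBIA, NFKBIE and TNFAIP3), against 5.11% of the 14336 genes tested, and none fell, against 2.27%. REL and TNFAIP3 kept the call when scaled by library size only and with a replicate block, while NFKBIA and NFKBIE did not. For 3 members (NFKB1, NFKB2 and REL) every H8 library was above every NC library, against 6.91% of genes. None passed an adjusted p under 0.05 by edgeR, against 0.0279% of genes, while 5 had an unadjusted p under 0.05, against 14.8% of genes, and DESeq2, by which 815 genes passed, had REL (adjusted p = 0.0150) and TNFAIP3 (adjusted p = 0.0193) among them. Of all genes, 733 were called up and 326 down, against 576 and 459 when scaled by library size only. Both comparisons use the same 3 NC libraries, so they are not independent of each other.

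H24 and H8 were compared to see which members moved between 8 and 24 weeks of the diet. None of the 10 members was called in either direction, against 7.22% of the 14788 genes tested called up (1068) and 3.05% called down (451), or 1447 and 290 when scaled by library size only. No member had an unadjusted p under 0.05 by edgeR, DESeq2 or limma, against 13.7% of genes by edgeR, none passed the adjusted threshold by edgeR (against 0.0135% of genes), and NFKB1 alone had every H24 library above every H8 library, against 15.5% of genes. The intervals were wide for the inducible members, with log2 fold changes of 0.00 for REL (95% interval -1.36 to 1.37), 0.11 for NFKBIE (-1.63 to 1.85), -0.15 for TNFAIP3 (-2.08 to 1.77) and -0.84 for NFKBIA (-1.996 to 0.32). Leaving out H8 replicate 2 brought a call for BCL3 (1.89), and leaving out H8 replicate 3 a call for NFKBIA (-1.16). NFKBIA had its higher mean in H8, with 134 ± 75.8 FPKM against 88.2 ± 29.3 in H24.

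REL, NFKBIE, NFKBIA, TNFAIP3 and RELB were highest within H8 in replicate 2 and within H24 in replicate 3. The other libraries were not all at the NC level. RELB in H24 and REL in H8 were above the NC range in every library. H8 replicate 2 was the highest of the 9 libraries in 3 members and among the highest 2 in 6, and H24 replicate 3 was the highest in 4 and among the highest 2 in 6. The median log2 ratio of the 10 members to their NC means was 0.64 in H8 replicate 2 and 0.88 in H24 replicate 3, against 0.02 to 0.47 in the other libraries on the high-fat diet. NFKB2, RELB and NFKBIA had their highest value of the 9 libraries in H8 replicate 2, and NFKB1, REL, NFKBIE and TNFAIP3 in H24 replicate 3, whereas NFKB2 had its lowest there. RELA and BCL3 were highest within H24 in replicate 2 and NFKBIZ in replicate 1.

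**Figure D3:**
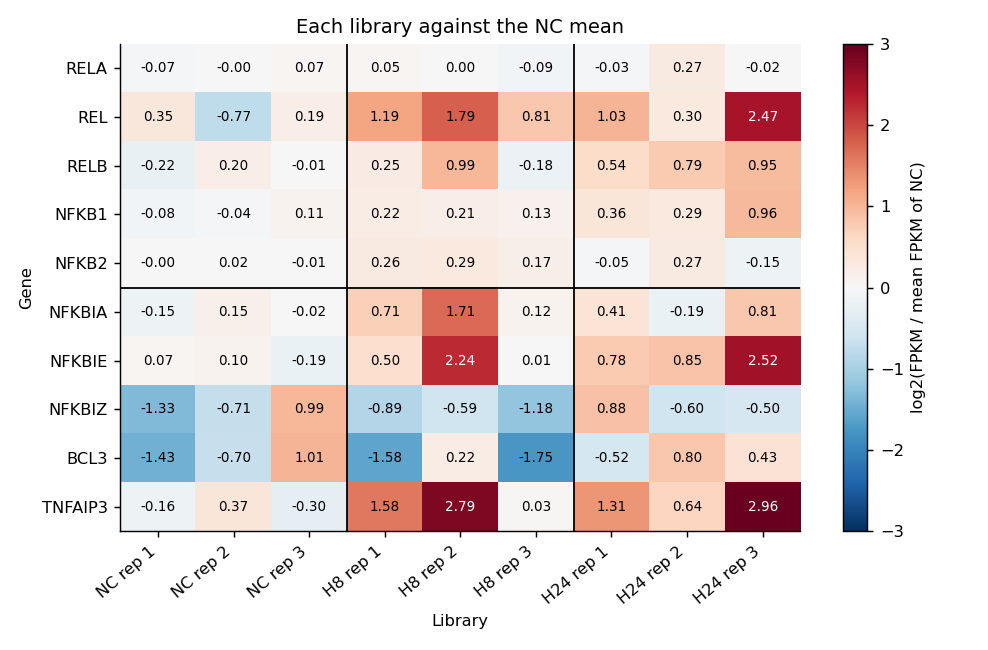
Log2 ratio of each member's FPKM to its NC mean, as a grid of 10 genes by 9 libraries with the value in each cell (red above the NC mean, blue below). H8 replicate 2 and H24 replicate 3 are raised for REL, NFKBIE and TNFAIP3, and NC replicate 3 for NFKBIZ and BCL3.

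These 2 libraries were far apart in their markers of other cells. H8 replicate 2 had a macrophage marker sum of 21.6 FPKM, within the NC range, whereas H8 replicates 1 and 3 had 122 and 66.7. NFKBIE, NFKBIA, TNFAIP3 and REL were thus highest within H8 in the library with the lowest macrophage marker level. H24 replicate 3 had the highest macrophage sum, 1455, against 223 and 137 in the other two, together with the lowest smooth muscle sum. The part of the macrophage and smooth muscle levels in the member levels of H24 replicate 3 was not tested. H8 replicate 2 also had the highest fibroblast marker sum (DCN, LUM, PDGFRA and 2 others), 3462 FPKM against 2216 and 3047 in the other H8 libraries and 1405 to 1647 in NC. Most of this was collagen, COL1A1 (1352 FPKM) and COL1A2 (1586), and of the 5 markers DCN and COL1A2 had their highest value of the 9 libraries there, while LUM, PDGFRA and COL1A1 did not.

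**Figure D4:**
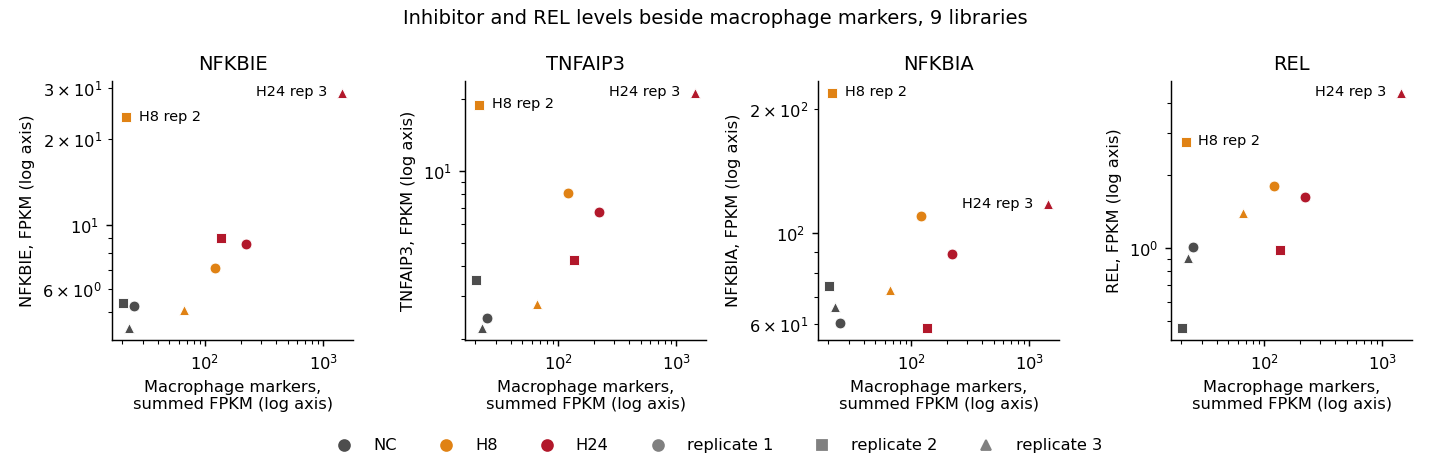
FPKM of NFKBIE, TNFAIP3, NFKBIA and REL against the summed FPKM of 8 macrophage markers in the 9 libraries, both axes logarithmic, coloured by group with the replicate as shape. H8 replicate 2 is the highest or next to highest library for all 4 genes at a macrophage marker sum of 21.6, and so is H24 replicate 3 at 1455.

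The other marker lists moved as follows. The 5 T cell markers (CD3D, CD3E, CD3G and 2 others) summed to 0.165 to 0.362 FPKM in NC, 0.655 to 0.865 in H8 and 3.21 to 17.1 in H24. The highest sum, in H24 replicate 2, was mostly CD3E (15.8 FPKM), whereas every other marker of this list was highest in H24 replicate 3. Of the 5 B cell markers, which summed to 5.07 to 5.74 in NC, 1.36 to 3.68 in H8 and 9.56 to 11.5 in H24, CD79A made up nearly all (9.38 to 11.3 FPKM in H24). CD79B was below 1 FPKM in every library and had overlapping ranges, 0.0192 to 0.117 in H24 and 0.106 to 0.569 in NC, MS4A1 was listed at 0 in all NC libraries, and the median log2 fold change of the 2 markers tested was -0.57 in H24 against NC. The 4 neutrophil markers in the table (5 were listed) summed to 0.850 to 1.05, 2.30 to 4.44 and 5.01 to 52.9 in NC, H8 and H24, with MPO at 0 in all libraries but H24 replicate 3. CSF3R alone carried the higher sum of H8 (2.21 to 4.32 FPKM against 0.232 to 0.301 in NC), while ELANE fell by 2.21 on the log2 scale in H8 and S100A8 was listed at 0 there. Endothelial markers (6 genes) summed to 56.4 to 145, 39.4 to 67.3 and 63.7 to 106, and fat cell markers (5 genes) to 14.6 to 45.1, 1.92 to 2.26 and 5.29 to 22.7. The fat cell list is relevant because a protocol text in the labels speaks of adipose tissue. The part of any of these in the member levels was not tested.

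The genes upstream of the members were described by lists of ligands, receptors and adaptors, of the kinases and ubiquitin ligases that act on I kappa B, and of further brakes on the pathway. Of 31 ligands, receptors and adaptors tested in H24 against NC, 12 rose and none fell, against 9.95% and 1.52% of all genes. The median log2 fold change of this list was 0.93. Among those with the smallest p-values were BTK, a kinase of B cell and myeloid signalling (4.79, SE 0.99), TNFRSF1B, a TNF receptor (2.15, SE 0.45), CD14, a co-receptor for lipopolysaccharide (3.35, SE 0.77), and TLR4, the lipopolysaccharide receptor (3.40, SE 0.89). CD14 is on the macrophage list as well, and TLR4 had 10.8, 3.82 and 34.5 FPKM in H24 replicates 1 to 3. Without H24 replicate 3, 8 of 31 rose, with 3.21 for BTK, 1.60 for TNFRSF1B, 2.07 for CD14 and 2.22 for TLR4, all still called. In H8 against NC, 4 of 30 rose, against 5.11% of all genes. They were led by TNFRSF11A, the RANK ligand receptor (1.55, SE 0.41), BTK (2.32, SE 0.72) and TNF (1.88, SE 0.64), all with FPKM below 4 in every H8 library. TNF had only 0.0400 to 0.0596 FPKM in NC and 0.0944 to 0.228 in H8. Its NC mean was below the filter of 0.1 FPKM, which it passed through its H8 values, so its place in this list has little weight. The call of BTK was lost without H8 replicate 1 (1.51) and that of TNF without NC replicate 2 (1.81) or NC replicate 3 (1.75), and 2 rose without H8 replicate 1 or NC replicate 3. In H24 against H8, 6 of 31 rose, against 7.22% of all genes, led by CD14 (2.82), TNFRSF1B (1.59) and TLR4 (2.30). Leaving out H24 replicate 3, H8 replicate 2 or H8 replicate 3 left 2 of 31, and TLR4 lost its call each time (1.16, 2.25 and 1.99).

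In the kinase list, IKBKE, an I kappa B kinase relative that also serves interferon signalling, was the only 1 of 16 genes called in H24 against NC (2.14, SE 0.56) and in H24 against H8 (1.47, SE 0.56), and none of 16 was called in H8 against NC. These counts stand against 9.95% of all genes called up in H24 against NC, 7.22% in H24 against H8 and 5.11% in H8 against NC. Without H24 replicate 3 the values of IKBKE were 1.26 against NC, still called, and 0.63 against H8, which was not, and the latter call was also lost without H8 replicate 2 (1.23) or H8 replicate 3 (1.53). Of 16 brakes tested in each comparison with H24, only ITCH, a ubiquitin ligase that works with TNFAIP3, was called. Of all genes, 1.52% were called down in H24 against NC and 3.05% in H24 against H8. ITCH fell by 1.21 on the log2 scale in H24 against NC and by 1.15 in H24 against H8. It had 5.17, 4.84 and 5.25 FPKM in NC and 1.54, 3.36 and 1.74 in H24. Its call was lost without H24 replicate 1 (-0.99 against NC and -0.93 against H8) and, against H8, without H24 replicate 3 (-0.99). No brake was called in H8 against NC among 15 tested.

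Of 27 genes tested that are known targets of NF-kappa B, 14 rose and none fell in H24 against NC. Of all genes tested, 9.95% rose and 1.52% fell. The median log2 fold change of the targets was 1.17. The smallest p-values belonged to CD83, a surface protein of activated antigen-presenting cells (3.48, SE 0.39), C3, the central complement component (4.10, SE 0.70), VCAM1, a leukocyte adhesion molecule (2.15, SE 0.37), MMP9, a matrix protease (9.001, SE 1.79), and TAP1, a peptide transporter for antigen presentation (1.43, SE 0.33). MMP9 had 13.05, 14.7 and 437 FPKM in H24 replicates 1 to 3. Without H24 replicate 3, 9 of 27 rose and these 5 were still called, with 5.51 for MMP9, 3.01 for C3, 3.10 for CD83, 1.85 for VCAM1 and 1.12 for TAP1. In H8 against NC, 9 of 27 rose and none fell, against 5.11% and 2.27% of all genes. C3 passed the adjusted threshold (2.82, SE 0.24, adjusted p = 0.0206 by edgeR), and MMP9 (2.68, SE 0.41) and CD83 (2.74, SE 0.45) came next. The number that rose was 5 without H8 replicate 2 or NC replicate 2 and 6 without NC replicate 1. In H24 against H8, 5 rose and 3 fell, against 7.22% and 3.05% of all genes. The leading genes were IER3, an early response gene (-2.06, SE 0.41), MMP9 (6.26, SE 1.56) and TAP1 (1.16, SE 0.30). Without H24 replicate 3, 1 rose and 3 fell, with 2.83 for MMP9 and 0.87 for TAP1, whose call was lost. Without H8 replicate 2, 8 rose and 1 fell. IER3 had 26.1, 36.2 and 22.3 FPKM in H8 and 5.73, 11.4 and 5.995 in H24, so the groups did not overlap. Except for C3 in H8 against NC, none of the pathway list genes named here passed an adjusted p under 0.05 by edgeR. The neutrophil marker CSF3R (log2 fold change 3.84) and the fat cell marker ADIPOQ (-6.39) also passed it in H8 against NC (adjusted p = 0.0206 each by edgeR). All 4 fat cell markers tested in H8 against NC were called down, against 2.27% of all genes.

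In single libraries the lists parted. The median difference in log2(FPKM + 0.1) from the NC mean was 1.395 for the targets and 0.02 for the ligands, receptors and adaptors in H8 replicate 2, and 1.91 and 1.47 in H24 replicate 3. Over all genes this median was -0.22 in H8 replicate 2, the lowest of the 9 libraries, and 0.004 in H24 replicate 3. The list values were not adjusted for it, so the receptor list of H8 replicate 2 cannot be placed at the NC level. H8 replicate 2 also had the highest levels of CXCL8 (35.5 FPKM, at most 6.29 elsewhere), IL6 (40.7, at most 12.4) and MYC (415, at most 128), targets named after their values were seen. These 3 genes encode a neutrophil chemokine, a cytokine and a growth-related transcription factor. Not all targets were high in H8 replicate 2. BCL2L1 (5.47 FPKM), CFLAR (3.34) and PSMB9 (1.73) had their lowest value of the 9 libraries there.

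**Figure D5:**
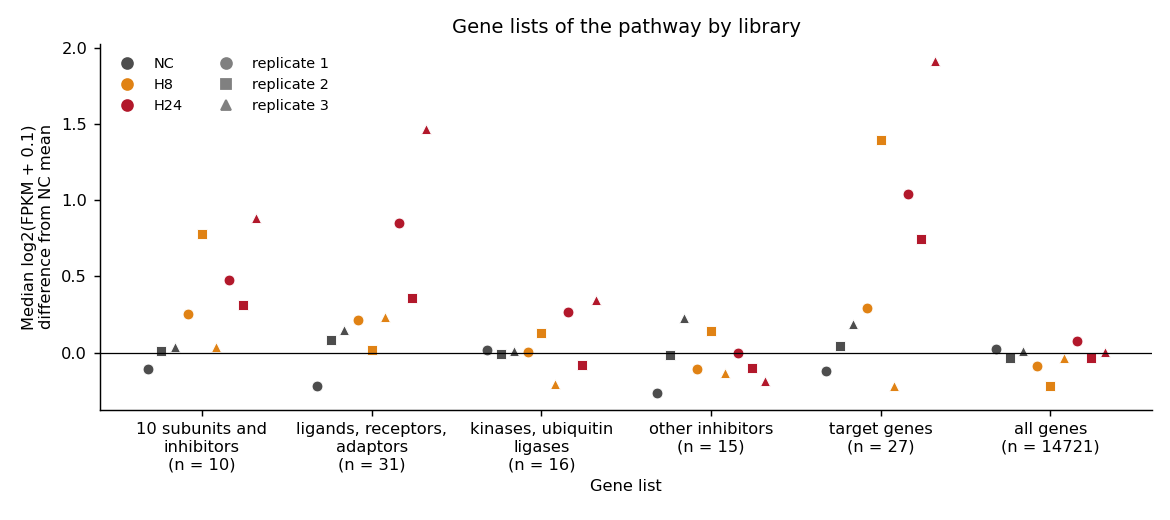
Median difference in log2(FPKM + 0.1) from the NC mean, for the members, 4 lists of pathway genes and all 14721 genes, in each of the 9 libraries (colour: group, shape: replicate). Targets are highest in H24 replicate 3 (1.91) and H8 replicate 2 (1.395), and ligands, receptors and adaptors are highest in H24 replicate 3 (1.47) and near 0 in H8 replicate 2 (0.02).

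The genes with the pattern most like that of the members were found by Pearson's r between a gene's log2 FPKM and the mean scaled level of the 10 members over the 9 libraries, among 9567 named genes whose mean was 1 FPKM or more. They were TNPO1, a nuclear import receptor (r = 0.966), UGCG, which makes glucosylceramide (r = 0.965), BDKRB1, the inducible bradykinin receptor (r = 0.964), RELT, a TNF receptor family member (r = 0.961), and GATAD2A, a chromatin repressor subunit (r = 0.949). The libraries share groups and tissue composition, so r is a description. RELT had 0.204, 0.430 and 0.678 FPKM in NC, 1.14, 5.82 and 0.254 in H8, and 1.29, 0.901 and 5.22 in H24. It was high in the same 2 libraries as NFKBIE and TNFAIP3, but it was picked for its likeness to the members, so this is no separate result.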

How the data were processed

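Paired-end RNA-seq reads were mapped by the authors with HISAT 2.0 to the pig genome Sscrofa11.1 and quantified with StringTie 1.3.0. The deposited table gives FPKM (per transcript length and mapped depth) and an estimated whole-number count for each gene and library. How the authors derived these expected counts, the annotation release and the strand setting are not given in the sources used here. The submitters' processing notes also name Bowtie 0.12.2 and mm8, with no role. The 10 members matched by name, and all 10 agreed in symbol and place with the Sscrofa11.1 gene tables. Libraries were grouped by their labels, none was left out, and no library repeated another.

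Counts were tested with edgeR 4.0.16 (R 4.3.3) by the quasi-likelihood test in both directions, with TMM scaling, on genes that averaged 0.1 FPKM or more in the 6 libraries compared, with Benjamini-Hochberg adjustment over all of them. Intervals cover 95% and are those of the fitted model, and counting floors of 3 counts cover counting error only. Calls used a log2 fold change beyond 1 and p under 0.05. Python 3.11.15 with numpy 2.4.6, pandas 2.3.3 and matplotlib 3.10.9 gave levels and figures. Alternatives were DESeq2 1.42.0, the likelihood ratio test, RLE and library-size scaling, no filter and a filter at a mean FPKM of 1, all 9 libraries in 1 fit, a replicate block, limma 3.58.1 on log2(FPKM + 0.1), + 1 and + 0.01, and each library left out. The method was tested on simulated data. Genes named are the members, the called genes of each pathway list with the smallest p-values (at most 3, or 5 for H24 against NC), the first 3 of each marker list, and 5 genes by likeness. Outside this rule, genes that overlap members and the markers MS4A1, ELANE, S100A8, COL1A1 and COL1A2 were also named. The targets CXCL8, IL6, MYC, BCL2L1, CFLAR and PSMB9 were named after their values were seen. Some genes of these lists are not reported here. The members and lists were chosen with earlier results of these data known.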

Additional observations from a re-analysis of the deposited data

How the results depend on the processing

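The number of members called in H24 against NC was 3, and 0 to 3 with 1 library left out. It was 2 with limma at each pseudocount, where REL was lost. In H8 against NC it was 4, and 1 to 4 with 1 library left out, 2 when scaled by library size only, 2 with limma on log2(FPKM + 0.1) and on log2(FPKM + 0.01), and 1 with log2(FPKM + 1). With all 9 libraries in 1 fit it was 3, NFKBIE being lost. In H24 against H8 it was 0, and 0 to 1 with 1 library left out. With H8 replicate 2 and H24 replicate 3 both left out, an alternative chosen after seeing the data, as was leaving out libraries for the pathway lists, it was 2 (NFKBIZ and BCL3, up), with -0.41 for REL and 0.0507 for RELA. With a replicate block, 2 members were called in H8 against NC (REL and TNFAIP3), 1 in H24 against H8 (BCL3) and 3 in H24 against NC, with log2 fold changes of -0.0005 for NFKB2 (H24 against NC) and -0.19 for REL (H24 against H8). Deviations of same-numbered libraries correlated at -0.0891 to 0.107, and those of differently numbered libraries of different groups at -0.199 to 0.209. Whether the numbers mark a shared batch cannot be told from these values. Genes past the adjusted threshold were 0, 4 and 2 in H24 against NC, H8 against NC and H24 against H8 by edgeR, 1004, 815 and 714 by DESeq2, 985, 584 and 406 by the likelihood ratio test and 10, 26 and 1 by limma on log2(FPKM + 0.1).

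Some small differences changed sign, the cause of which was not tested. The TMM scaling factors over the 9 libraries were 0.999 to 1.04 in NC, 0.862 to 0.993 in H8 and 1.01 to 1.08 in H24. RELA in H8 against NC was -0.0232 with library-size scaling and -0.0111, -0.0106 and -0.0112 with limma at pseudocounts of 0.1, 1 and 0.01. In H24 against H8, RELA was 0.1063, 0.084, 0.0805 and 0.0844 and TNFAIP3 0.1267, 0.1645, 0.1313 and 0.1689 under the same settings. With 1 library left out, H24 against NC ranged over -0.1453 to 0.0995 for NFKB2, -0.0667 to 0.1328 for RELA, -0.5431 to 1.0211 for NFKBIZ and -0.0706 to 1.3189 for BCL3. H8 against NC ranged over -1.0913 to 0.2568 for NFKBIZ and -1.5868 to 0.4505 for BCL3. H24 against H8 ranged over -0.0329 to 0.303 for NFKB1, -0.8189 to 0.398 for REL, -0.1378 to 0.6005 for RELB, -0.6702 to 1.2089 for NFKBIE and -1.0908 to 0.8205 for TNFAIP3. Every interval rests on 3 libraries a group, of 44094263 to 75787978 counts each.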
